A study of Mus musculus with 9 samples.

Results

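The Argonaute and microRNA machinery comprised 9 genes chosen by name, *Ago1*, *Ago2*, *Ago3*, *Ago4*, *Drosha*, *Dicer1*, *Tnrc6a*, *Tnrc6b* and *Tnrc6c*. Every RefSeq transcript of these genes in the count table was used, which gave 49 transcripts of 107384, and 9 genes of the 32903 to which a transcript could be matched. All 9 genes passed the filter on low counts, so they were 9 of the 15267 protein-coding genes tested. The question was whether mRNAs that encode the microRNA machinery came down with cytoplasmic CELF2.

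CELF2 is an RNA-binding protein of the CELF family that shuttles between nucleus and cytoplasm and acts on splicing, stability and translation of mRNAs. RNA immunoprecipitation-sequencing (RIP-seq) was done on the cytoplasmic fraction of P0 cortex (postnatal day 0) from knock-in (KI) mice, labelled Heterozygous for CELF2 p.R493H. There were 3 CELF2-KI RIPs with 10 µg of rabbit antibody against CELF2, 3 IgG RIPs with 10 µg of normal rabbit IgG, each incubated for 3 hours, and 3 input samples taken from the fraction before antibody was added. All 9 libraries came from the same genotype, so the IgG RIP and the input are controls for the pull-down and not for the variant, and the methods call the replicates biological. The tissue is a mixture of cortical cell types, and fewer cells of a type and less RNA per cell cannot be told apart.

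MicroRNAs are short RNAs that pair with mRNAs through a seed near their 5′ end and lower the output of those mRNAs. Drosha cuts the primary transcript in the nucleus, Dicer1 cuts the exported hairpin in the cytoplasm, and an Argonaute protein binds the mature strand and carries it to its targets. TNRC6 proteins, also called GW182 proteins, bind Argonaute and recruit the deadenylation and decapping enzymes, and in the developing cortex this pathway is needed for neurogenesis and for the survival of neurons.

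The CELF2-KI RIPs held 15919600 to 20052716 estimated counts, the IgG RIPs 17365561 to 28773130 and the inputs 69125700 to 105116427. The share of 45S rRNA was 10.8% to 34.9% in IgG RIP and 1.76% or less in every other library. Levels below are CPM, the counts of a gene scaled to a fixed library size. For single protein-coding genes that size is the sum over protein-coding genes corrected by TMM factors. These were 0.77 to 0.88 in CELF2-KI RIP, 1.05 to 1.08 in IgG RIP and 1.12 to 1.16 in input. Sums over cell type markers leave the factors out, so their scale is not that of the calls beside them. Host transcripts of microRNAs have another scale, given with them. *Celf2* mRNA itself was higher in CELF2-KI RIP than in IgG RIP by 1.46 on the log2 scale (edgeR FDR = 9.69e-05) and than in input by 1.11 (edgeR FDR = 0.000434). The summed level of 6 excitatory neuron markers was 1380 to 1690 CPM in the CELF2-KI RIPs, 920 to 1030 CPM in the IgG RIPs and 1050 to 1210 CPM in the inputs, and 3 of the 6 were called higher in each comparison. That of 6 inhibitory neuron markers was 516 to 559, 356 to 408 and 517 to 548 CPM in the same order. The CELF2-KI RIPs thus overlapped the inputs on this uncorrected scale, but the TMM factors would raise the former and lower the latter. Of these 6, 2 were called higher than IgG RIP, and 1 higher and 1 lower than input. It was 376 to 802, 679 to 781 and 1090 to 1330 CPM for 6 markers of radial glia and astrocytes, 422 to 575, 590 to 601 and 547 to 632 CPM for 5 of oligodendrocyte precursors, 77.3 to 98.2, 63.3 to 86.1 and 146 to 191 CPM for 6 of microglia and 155 to 213, 173 to 382 and 242 to 389 CPM for 6 of endothelium. Of these lists, 2, 0, 2 and 1 genes were called lower than IgG RIP and 2, 2, 4 and 2 lower than input, and 1 microglial gene was called higher in each comparison. By the same rule, given below, 13.4% of all genes tested were called higher and 13.6% lower than IgG RIP. Against input these shares were 14.6% and 15.5%, and lists of 5 or 6 genes allow no close comparison with them. Sums over 6 erythroid markers were 72.7 to 81.4, 391 to 613 and 996 to 1300 CPM, and of the 5 that were tested 5 were called lower than IgG RIP and 4 lower than input. *Csf1r* of microglia was listed at 0 in all 3 inputs. The part of these markers in the results on the machinery was not tested.

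A gene was called when the edgeR quasi-likelihood test gave a Benjamini-Hochberg FDR under 0.01 over all genes tested together with a change of 2-fold or more. Compared with IgG RIP, 1 of the 9 genes was called higher in CELF2-KI RIP and 0 lower, against 13.4% and 13.6% of all genes tested, so the first count was near that of all genes. Compared with input, 6 were called higher and 0 lower, against 14.6% and 15.5% of all genes. *Ago2* was the 1 gene called higher than both controls, which 7.58% of all genes were. By FDR under 0.01 at any size, 4 genes were higher than IgG RIP (*Ago1*, *Ago2*, *Ago4* and *Tnrc6b*) and 1 was lower (*Drosha*), against 22.9% and 19.2% of all genes. Against input, 7 were higher (these 4, *Dicer1*, *Tnrc6a* and *Tnrc6c*) and *Drosha* was again lower, against 26.8% and 20.1% of all genes. The 9 genes had a median log2 fold change of 0.40 against IgG RIP and 1.18 against input, beside -0.06 and 0.19 for all genes tested. At an unadjusted p under 0.05, 5 were higher and 1 lower than IgG RIP, against 30.6% and 29.8% of all genes, and 7 higher and 1 lower than input, against 37.2% and 27.3%. The comparisons share the CELF2-KI RIP libraries, so they are given side by side and not as separate evidence.

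**Figure D1:**
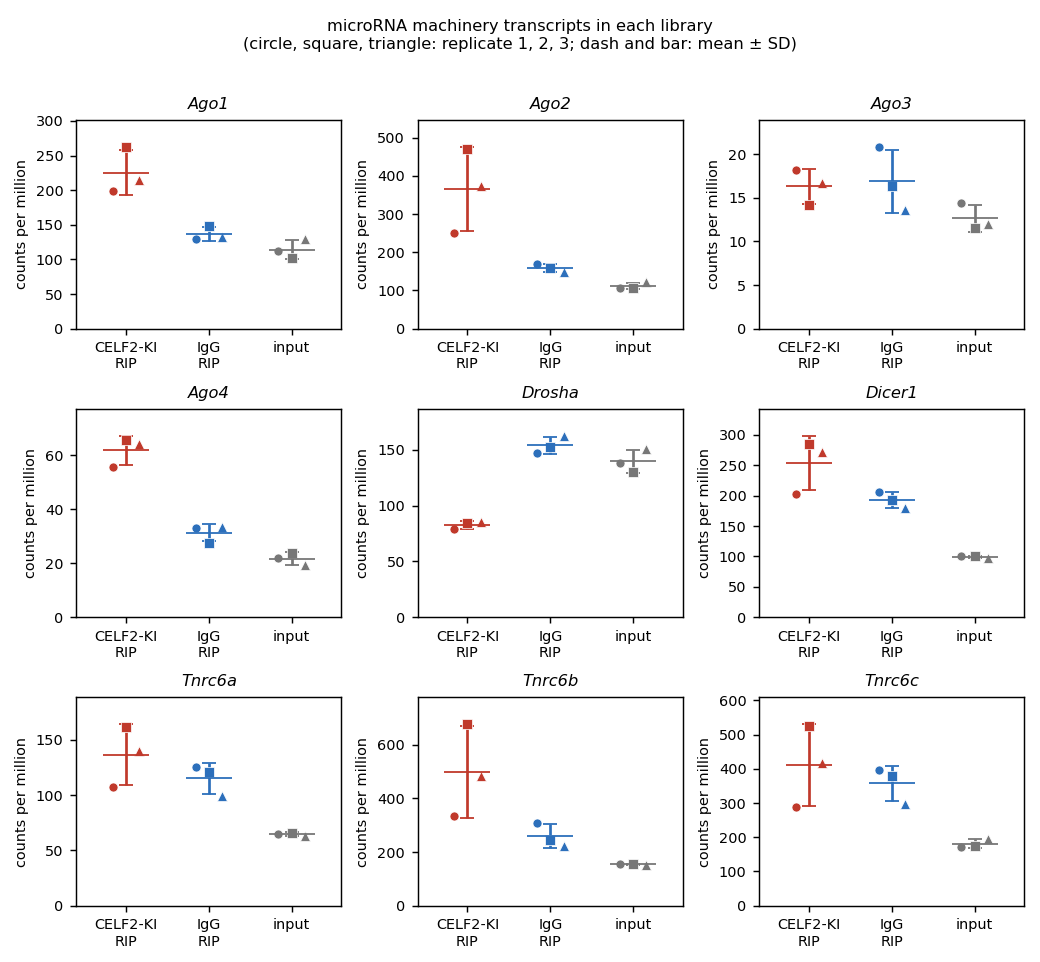
Level of each machinery transcript in CPM (vertical axes from 0, scaled per gene) in the 9 libraries, with circles, squares and triangles for replicates 1, 2 and 3 and a dash with a bar for the mean ± SD (n = 3). In *Ago1*, *Ago2*, *Ago4* and *Tnrc6b* all 3 CELF2-KI RIP libraries lie above all 6 controls, and in *Drosha* all 3 lie below.

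*Ago2* encodes the Argonaute that can itself cut a target paired along its length. It lies on chromosome 15 (chr15:73101625-73184947, GRCm38.p6) and had 1 transcript in the table, NM_153178.4. Its level was 251, 469 and 375 CPM in CELF2-KI RIP replicates 1, 2 and 3, 169, 158 and 149 CPM in the IgG RIPs and 106, 108 and 122 CPM in the inputs. The groups did not overlap, and the 3 CELF2-KI RIP libraries were far more spread than the controls. The mean of 365 ± 109 CPM (SD, n = 3) compared with 159 ± 9.68 in IgG RIP and 112 ± 8.76 in input. The rise was 1.20 on the log2 scale over IgG RIP (SE 0.19, edgeR FDR = 0.00045), a 2.30-fold change that exceeded 89.0% of genes tested. Over input it was 1.71 (SE 0.20, edgeR FDR = 4.63e-05), a 3.27-fold change that exceeded 97.7% of genes. The call over IgG RIP was lost without CELF2-KI RIP replicate 2, where the log2 fold change was 0.98, and held in the other 8 fits that left out a library. The call over input held in all 9.

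*Ago1*, *Ago3* and *Ago4* sit side by side on chromosome 4, and the order along the GRCm38.p6 assembly is *Ago3* (chr4:126326994-126431670), *Ago1* (chr4:126435012-126468707) and *Ago4* (chr4:126489487-126533586). All 3 encode Argonautes that load microRNAs.

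*Ago4* was at 55.8, 65.5 and 64.3 CPM in the CELF2-KI RIPs, 33.0, 27.6 and 33.5 CPM in the IgG RIPs and 21.9, 24.0 and 19.3 CPM in the inputs. Every CELF2-KI RIP library was above every control, with a spread of 61.8 ± 5.32 CPM (SD, n = 3) against 31.3 ± 3.28 and 21.7 ± 2.34. The difference over IgG RIP was 0.98 on the log2 scale (SE 0.14, edgeR FDR = 0.000206), or 1.97-fold and just short of the 2-fold rule. It passed that rule without CELF2-KI RIP replicate 1 (1.05), without IgG RIP replicate 1 (1.02) and without IgG RIP replicate 3 (1.03). Over input *Ago4* rose by 1.51 (SE 0.14, edgeR FDR = 1.47e-05), a call that held in all 9 fits that left out a library.

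*Ago1* was at 199, 262 and 215 CPM in the CELF2-KI RIPs, 129, 149 and 132 CPM in the IgG RIPs and 111, 102 and 129 CPM in the inputs. The CELF2-KI RIP libraries did not overlap the controls, while IgG RIP and input did not separate from each other. The difference was 0.72 over IgG RIP (SE 0.14, edgeR FDR = 0.00124) and 0.98 over input (SE 0.14, edgeR FDR = 0.000156), that is 1.65-fold and 1.97-fold, so neither reached 2-fold. Over input it did so without CELF2-KI RIP replicate 1 (1.06) or replicate 3 (1.01).

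*Ago3* was at 18.2, 14.2 and 16.7 CPM in the CELF2-KI RIPs, 20.8, 16.4 and 13.6 CPM in the IgG RIPs and 14.4, 11.6 and 11.9 CPM in the inputs. All 3 groups overlapped. Over IgG RIP its log2 fold change was -0.05 (SE 0.19, edgeR FDR = 0.835), and over input 0.37 (SE 0.19, edgeR FDR = 0.109). Neither sign was stable, since the first turned to 0.13 without IgG RIP replicate 1 and 0.04 without CELF2-KI RIP replicate 2, and the second turned to -0.08 when libraries were scaled by total counts. With 165 to 332 estimated counts per RIP library, *Ago3* was measured from far fewer reads than the other Argonautes.

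*Drosha*, the nuclear endonuclease that releases the microRNA hairpin, went the other way. It lies on chromosome 15 (chr15:12824804-12935291, GRCm38.p6) and was at 78.9, 84.4 and 85.7 CPM in the CELF2-KI RIPs, 147, 153 and 162 CPM in the IgG RIPs and 138, 130 and 151 CPM in the inputs. Every CELF2-KI RIP library was below every control, and IgG RIP overlapped input. The mean of 83.0 ± 3.58 CPM (SD, n = 3) compared with 154 ± 7.60 and 140 ± 10.2. *Drosha* was lower than in IgG RIP, at -0.89 on the log2 scale (SE 0.10, edgeR FDR = 5.03e-05) and than in input, at -0.75 (SE 0.10, edgeR FDR = 0.00012), a 1.86-fold and a 1.68-fold difference. It was therefore under the 2-fold rule, although under other ways of scaling the libraries it passed that rule, and it stayed below 0 in both comparisons under all settings tried, between -1.31 and -0.72. Of all genes tested, 21.9% had a lower log2 fold change over IgG RIP and 24.2% over input.

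*Dicer1*, the cytoplasmic endonuclease that cuts the hairpin into the mature duplex, lies on chromosome 12 (chr12:104687740-104751968, GRCm38.p6). It was at 203, 286 and 273 CPM in the CELF2-KI RIPs, 206, 193 and 179 CPM in the IgG RIPs and 100.4, 99.97 and 97.4 CPM in the inputs. Both kinds of RIP were above all input libraries, and CELF2-KI RIP replicate 1 was below IgG RIP replicate 1. *Dicer1* rose over input by 1.35 on the log2 scale (SE 0.13, edgeR FDR = 2.13e-05), or 2.56-fold. Over IgG RIP the difference was 0.40 (SE 0.13, edgeR FDR = 0.0264), and IgG RIP itself was above input by 0.96 (SE 0.13, edgeR FDR = 0.000596).

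**Figure D2:**
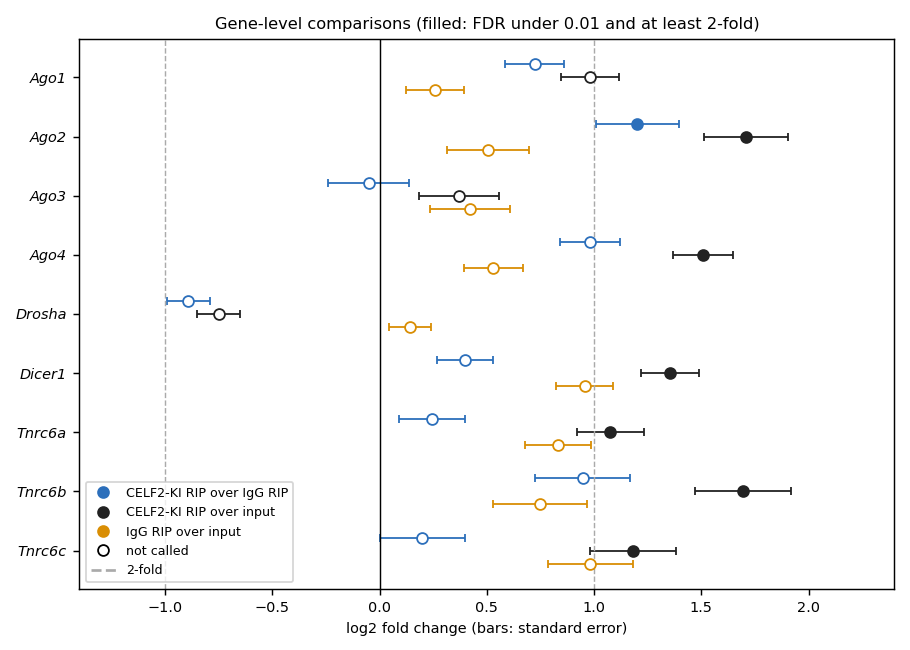
Log2 fold change of each machinery gene (points, with bars for the standard error) in CELF2-KI RIP over IgG RIP, CELF2-KI RIP over input and IgG RIP over input, with dashed lines at 2-fold and filled points for called genes. *Ago2* is the 1 gene filled in both CELF2-KI RIP comparisons, and all 9 points of IgG RIP over input lie above 0.

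The TNRC6 genes encode the scaffold proteins that link Argonaute to deadenylases. *Tnrc6b* (chr15:80711313-80941086, GRCm38.p6) was at 336, 675 and 484 CPM in the CELF2-KI RIPs, 309, 245 and 222 CPM in the IgG RIPs and 155, 156 and 152 CPM in the inputs. All 3 CELF2-KI RIP libraries were above all controls, but replicate 1 only narrowly. It rose over input by 1.69 on the log2 scale (SE 0.22, edgeR FDR = 0.000114), or 3.23-fold. Over IgG RIP the difference was 0.95 (SE 0.22, edgeR FDR = 0.00435), or 1.93-fold, and it reached 2-fold without CELF2-KI RIP replicate 1 (1.16) or without IgG RIP replicate 1 (1.10).

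*Tnrc6c* (chr11:117653703-117763439) was at 287, 526 and 418 CPM in the CELF2-KI RIPs, 396, 379 and 298 CPM in the IgG RIPs and 173, 173 and 196 CPM in the inputs. CELF2-KI RIP replicate 1 was below all 3 IgG RIP libraries, whereas replicates 2 and 3 were above them. Over input it rose by 1.18 (SE 0.20, edgeR FDR = 0.00056), a call that was lost without CELF2-KI RIP replicate 2 (0.96). Over IgG RIP the log2 fold change was 0.20 (SE 0.20, edgeR FDR = 0.424), and it was -0.02 without that library and -0.19 with total counts as the scale.

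*Tnrc6a* (chr7:123031101-123195296) was at 107, 162 and 140 CPM in the CELF2-KI RIPs, 126, 121 and 99.6 CPM in the IgG RIPs and 65.3, 65.9 and 63.0 CPM in the inputs. As for *Tnrc6c*, the 2 kinds of RIP overlapped and both were above input. Over input it rose by 1.08 (SE 0.15, edgeR FDR = 0.000191), which fell to between 0.93 and 0.97, under 2-fold, without CELF2-KI RIP replicate 2 or without any 1 of the 3 inputs. Over IgG RIP it was 0.24 (SE 0.15, edgeR FDR = 0.206) and turned to -0.14 with total counts as the scale.

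The CELF2-KI RIP libraries differed from each other in a way most of these genes shared. Replicate 1 had the lowest level of the 3 in 8 of the 9 genes, and replicate 2 the highest in 7. *Ago3* was the exception to the first. *Celf2* mRNA, at 470, 797 and 647 CPM in replicates 1, 2 and 3, was also lowest in replicate 1 and highest in replicate 2. How many of all genes tested shared this pattern was not counted, so it is not read as a trait of the machinery. All 3 CELF2-KI RIP libraries were above all 6 controls in 4 of the 9 genes, *Ago1*, *Ago2*, *Ago4* and *Tnrc6b*, and below them in 1, *Drosha*. Such an order was seen in 25.2% and 19.9% of all genes tested.

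The IgG RIP without the CELF2 antibody was also compared with input, as the background of the pull-down. By edgeR, 0 machinery genes were called higher and 0 lower, against 6.79% and 5.0% of all genes, and the DESeq2 test also gave 0 and 0. At an unadjusted edgeR p under 0.05, 7 were higher and 0 lower, against 24.8% and 24.2% of all genes. All 9 log2 fold changes were above 0, with a median of 0.53 beside -0.004 for all genes. The furthest from 0 were *Tnrc6c* at 0.98 (edgeR FDR = 0.00393), *Dicer1* at 0.96 and *Tnrc6a* at 0.83 (edgeR FDR = 0.00243). *Tnrc6b* was at 0.75 (edgeR FDR = 0.0219), *Ago4* at 0.53 (edgeR FDR = 0.0126), *Ago2* at 0.51 (edgeR FDR = 0.0583), *Ago3* at 0.42 (edgeR FDR = 0.0957), *Ago1* at 0.26 (edgeR FDR = 0.154) and *Drosha* at 0.14 (edgeR FDR = 0.278). *Dicer1* and *Tnrc6c* passed 2-fold without IgG RIP replicate 3, at 1.01 and 1.10, and that library held 10.8% of 45S rRNA against 32.9% and 34.9% in the other two. In *Dicer1*, *Tnrc6a* and *Tnrc6c* the estimates of IgG RIP over input were larger than those of CELF2-KI RIP over IgG RIP, and the difference of these estimates was not tested.

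The scale on which libraries are compared moved all of these values at once. With TMM over protein-coding genes, the median of all genes tested was -0.06 against IgG RIP and 0.19 against input, and with total counts it was -0.42 and -0.27. *Ago2* over IgG RIP was 1.20 with TMM, 1.13 with DESeq2 size factors, 0.97 with TMM over coding and noncoding genes, 0.94 with the upper quartile and 0.82 with total counts. The last 3 were under 2-fold, at an FDR of 0.00176 or less. *Drosha* over IgG RIP was -0.89, -0.96, -1.11, -1.16 and -1.26 in the same order, and it was called lower with the last 3. Over input, *Ago2*, *Ago4* and *Tnrc6b* were called higher with all 5 scales, and with total counts *Dicer1* (0.88), *Tnrc6c* (0.70) and *Tnrc6a* (0.60) were not.

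**Figure D3:**
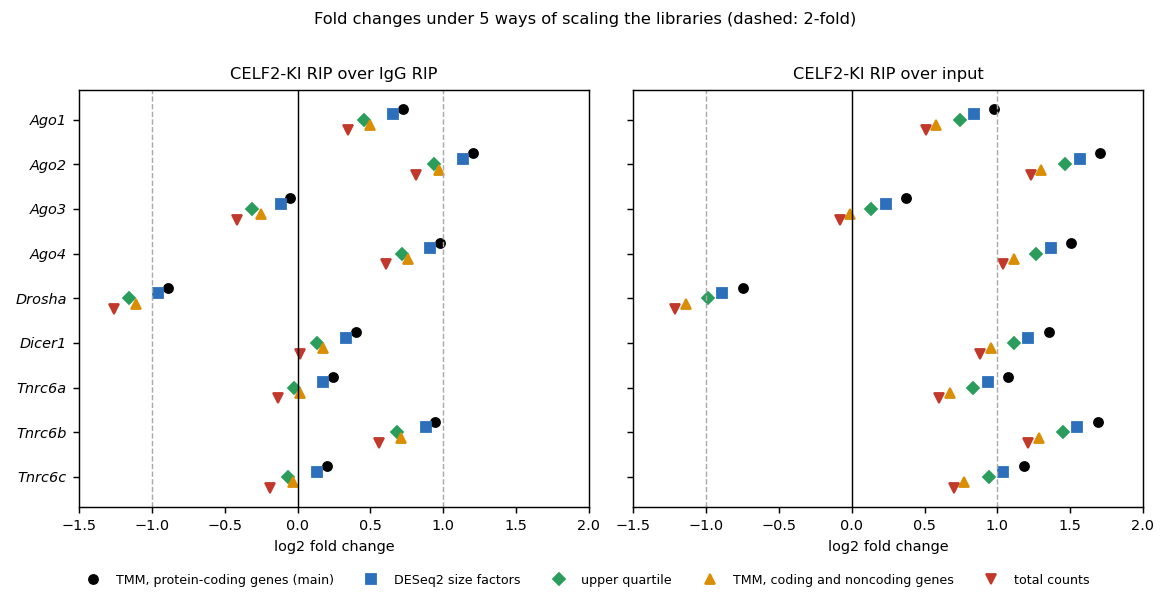
Log2 fold change of each machinery gene over IgG RIP (left) and over input (right) under 5 ways of scaling the libraries, one marker shape each, with dashed lines at 2-fold. Markers of a gene shift left together from TMM to total counts, with *Ago2* at 1.20 to 0.82 and *Drosha* at -0.89 to -1.26 over IgG RIP.

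The gene values sum over transcripts, and the transcripts were also compared one by one. Of the 49 transcripts, 39 passed the filter on low counts and entered a fit over 39137 transcripts of protein-coding genes. The scale of that fit differs, as the single transcript of *Ago2* shows, whose counts are those of the gene. In the transcript fit it was at 0.96 on the log2 scale over IgG RIP and at 1.21 over input, 0.24 and 0.50 below the gene fit. Transcript values are therefore read against each other and not against the gene values.

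In the transcript fit, 1 of the 39 was called higher than in IgG RIP and 0 lower, against 3.19% and 3.15% of all transcripts tested. This was NM_153177.3 of *Ago4*, at 1.09 (SE 0.18, edgeR FDR = 0.00575). Over input 4 were called higher and 1 lower, against 0.94% and 4.51% of all transcripts. The 4 were NM_177124.4 of *Tnrc6b* (1.25), the *Ago2* transcript (1.21), NM_153177.3 of *Ago4* (1.20) and NM_148948.2 of *Dicer1* (1.14), with edgeR FDR values of 0.00432 to 0.00782, and the 1 was NM_026799.3 of *Drosha* (-2.02, SE 0.25, edgeR FDR = 0.00212). With the replicate number as a block, which treats same-numbered libraries as sets, 0 transcripts were called higher than IgG RIP and 0 higher than input. That of *Drosha* was still called lower than input. Higher calls were likewise 0 in both comparisons without CELF2-KI RIP replicate 2, without replicate 3 or without any 1 of the inputs, and 0 over IgG RIP without IgG RIP replicate 2. The lower call of *Drosha* was lost without input replicate 1 or 3.

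NM_026799.3 held 41.8%, 30.4% and 43.3% of the *Drosha* counts in the CELF2-KI RIP replicates, 51.5%, 28.3% and 39.6% in the IgG RIPs and 67.3%, 62.1% and 69.5% in the inputs. Its share was below that of every input in both kinds of RIP. The predicted transcript XM_006520021.3 held 43.9%, 48.1% and 45.7% in the CELF2-KI RIPs, 36.9%, 22.2% and 36.9% in the IgG RIPs and 16.4%, 21.2% and 19.2% in the inputs. Its own log2 fold change over input was 0.05 (SE 0.23, edgeR FDR = 0.955), while that of NM_026799.3 was -2.02, so the transcripts of *Drosha* differed over input in these point estimates. The test of unequal change among transcripts, limma's diffSplice, gave an FDR of 0.0239 over input and 0.696 over IgG RIP.

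*Ago3* had the lowest p of these genes in that test over IgG RIP. The predicted noncoding transcript XR_001784115.1 held 68.6%, 100% and 96.7% of its counts in the CELF2-KI RIPs, 52.2%, 42.5% and 0% in the IgG RIPs and 43.2%, 60.4% and 69.8% in the inputs. The curated coding transcript NM_153402.2 was listed at 0% in CELF2-KI RIP replicates 2 and 3, and held 28.9% in replicate 1, 9.65% to 44.6% in the IgG RIPs and 27.1% to 50.6% in the inputs. The predicted transcript XM_011240478.2 held 0%, 0% and 0.01% in the CELF2-KI RIPs and 3.22%, 19.0% and 84.3% in the IgG RIPs. Its share was 3.07% to 10.8% in the inputs. In the transcript fit it was at -10.2 over IgG RIP (edgeR FDR = 0.0199) and -7.83 over input (edgeR FDR = 0.0454), not called. Over IgG RIP, XR_001784115.1 was at 1.04 (edgeR FDR = 0.695) and NM_153402.2 at -1.83 (edgeR FDR = 0.614). The diffSplice FDR was 0.0143 over IgG RIP and 0.0204 over input. It passed 0.01 over IgG RIP without IgG RIP replicate 1 (0.00898) and over input without IgG RIP replicate 3 (0.00542). With curated transcripts alone *Ago3* was at -1.87 over IgG RIP (edgeR FDR = 0.378), so the gene total joins transcripts with unequal estimates at low counts.

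By diffSplice 0 of the 8 machinery genes with more than 1 transcript tested passed an FDR of 0.01 in either comparison, against 4.24% of all such genes over IgG RIP and 9.04% over input. At an unadjusted p under 0.05 it gave 3 over IgG RIP (29.3% of all such genes), *Ago3*, *Tnrc6c* (FDR 0.0694) and *Tnrc6b* (FDR 0.0953), and 4 over input (34.1% of all such genes), *Ago3*, *Drosha*, *Tnrc6a* (FDR 0.0526) and *Tnrc6c* (FDR 0.102), and limma's F test passed 0 in either. In *Tnrc6b* the transcript NM_177124.4 held 83.6%, 73.1% and 72.2% of the counts in the CELF2-KI RIPs, 65.5%, 54.1% and 60.6% in the IgG RIPs and 72.6%, 71.5% and 72.4% in the inputs. Against IgG RIP it was at 1.02 (SE 0.21), compared with 0.02 on the log2 scale (SE 0.34) for NM_144812.2. In *Tnrc6c*, XM_006533109.3 was at 0.96 over IgG RIP and XM_011248961.2 at -0.82, the second of which held 27.4% to 34.2% of the counts in the CELF2-KI RIPs, 50.4% to 61.3% in the IgG RIPs and 28.0% to 30.3% in the inputs. The value of 0.20 for the whole *Tnrc6c* gene pools these with its other transcripts.

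**Figure D4:**
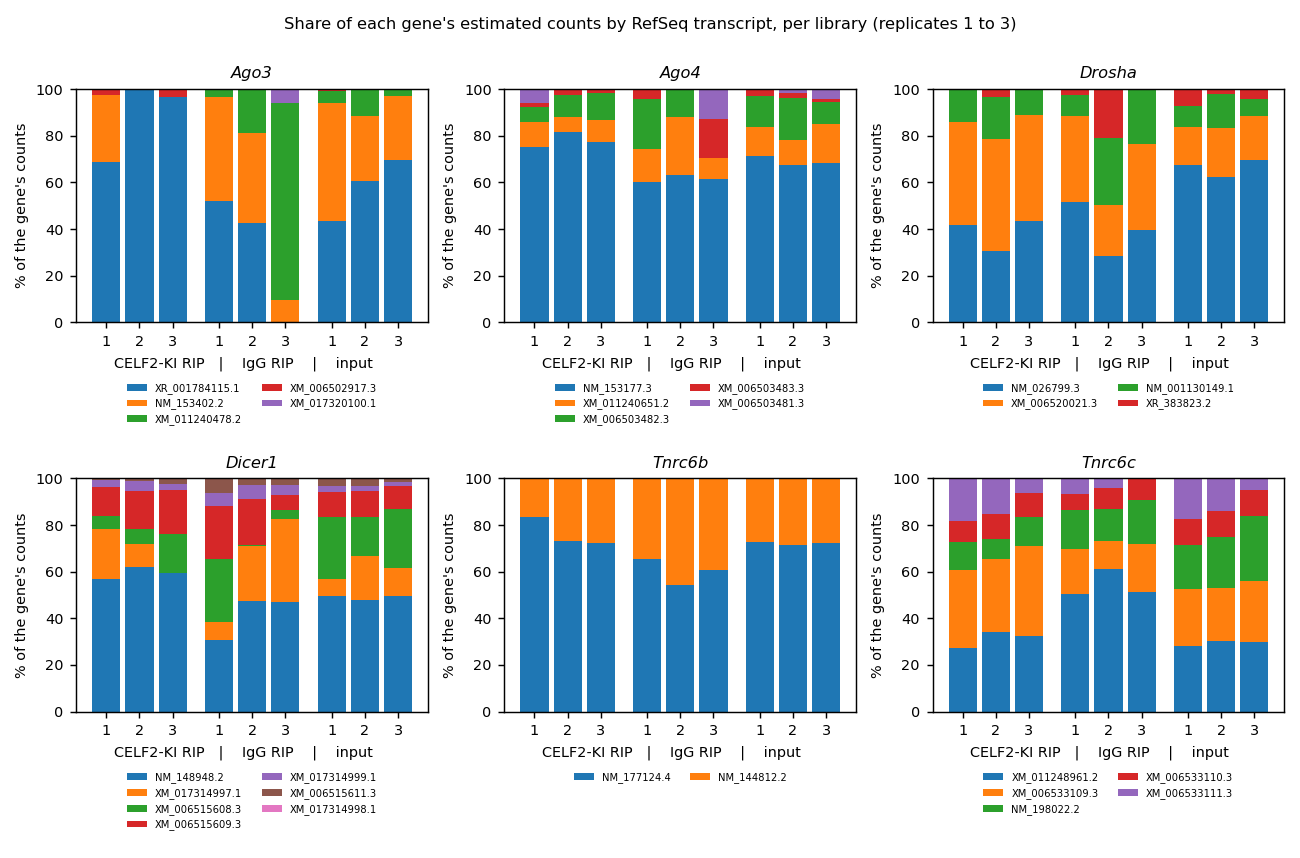
Share of the estimated counts of 6 machinery genes held by each RefSeq transcript (stacked colours, percent of the gene's counts) in each of the 9 libraries. In *Drosha*, NM_026799.3 holds 62.1% to 69.5% in input and 30.4% to 43.3% in CELF2-KI RIP, where XM_006520021.3 is the larger at 43.9% to 48.1%. The largest block of *Ago3* holds 68.6% to 100% in CELF2-KI RIP.

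How far such shares can be read differs between genes. In *Ago1*, NM_153403.3 and NM_001317173.1 had equal values in all 9 libraries, so these reads could not be told apart between the pair. The 10 tested transcripts of *Tnrc6a* changed places between replicates of 1 group, for example XM_017322204.1, which held 17.3%, 0.01% and 57.2% of the counts in IgG RIP. Predicted transcripts held 75.2% to 94.5% of the *Tnrc6a* counts in CELF2-KI RIP and 87.4% to 91.3% of those of *Tnrc6c*, but none in *Ago2* and *Tnrc6b*. When curated transcripts alone were summed, *Tnrc6c* over input was 0.06 and *Tnrc6a* 0.43, neither of them called. Over IgG RIP *Ago4* was then at 1.19 and called, and *Tnrc6a* at 1.84 and not called.

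Other genes of the pathway were taken from a list of 43, of which 41 were tested and *Lin28a* and *Piwil2* were too low. Over IgG RIP 4 were called higher and 6 lower, against 13.4% and 13.6% of all genes, and over input 7 higher and 5 lower, against 14.6% and 15.5%, so the list as a whole was called about as often as all genes. The same shares are the background of each smaller group below, whose counts are too small to be read against them. They had a median of -0.04 on the log2 scale against IgG RIP and 0.29 against input, beside the -0.06 and 0.19 of all genes. The 7 became 4 without any 1 of the inputs and 1 with total counts as the scale. The largest rise and the largest decrease called over IgG RIP were those of both partners of Dicer1.

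*Tarbp2* and *Prkra* encode the double-stranded RNA-binding proteins TRBP and PACT, which hold Dicer1 and help load Argonaute. *Prkra* was at 41.4, 41.4 and 36.4 CPM in the CELF2-KI RIPs, 11.4, 9.91 and 14.1 CPM in the IgG RIPs and 28.5, 26.0 and 27.1 CPM in the inputs. *Tarbp2* was at 7.60, 7.70 and 7.85 CPM in the CELF2-KI RIPs, 48.9, 39.7 and 26.6 CPM in the IgG RIPs and 19.95, 20.3 and 23.1 CPM in the inputs. *Prkra* rose over IgG RIP by 1.75 (SE 0.16, edgeR FDR = 1.49e-05), whereas *Tarbp2* was lower, at -2.32 (SE 0.22, edgeR FDR = 1.79e-05). Over input *Tarbp2* was lower, at -1.45 (edgeR FDR = 0.000199) and *Prkra* was at 0.55 (edgeR FDR = 0.00891), under 2-fold. IgG RIP and input differed as well, with *Prkra* lower in IgG RIP, at -1.20 (edgeR FDR = 0.000399) and *Tarbp2* at 0.86 (edgeR FDR = 0.00717). *Adar*, an RNA editing enzyme that acts on double-stranded RNA, was at 0.01 over IgG RIP (edgeR FDR = 0.923).

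Among the 12 effectors of deadenylation, decapping and decay, 2 were called higher than IgG RIP and 0 lower, and 4 higher and 1 lower than input, with medians of 0.13 and 0.32. *Ddx6*, the helicase that TNRC6-bound complexes recruit for repression, was at 387, 438 and 426 CPM in the CELF2-KI RIPs, 145, 142 and 188 CPM in the IgG RIPs and 222, 215 and 168 CPM in the inputs. It rose by 1.40 over IgG RIP (SE 0.15, edgeR FDR = 3.48e-05) and 1.05 over input (SE 0.15, edgeR FDR = 0.000158). *Dcp2*, the decapping enzyme, was at 108, 189 and 128 CPM in the CELF2-KI RIPs, 53.6 to 60.0 CPM in the IgG RIPs and 35.1 to 41.3 CPM in the inputs. It rose by 1.32 (SE 0.19, edgeR FDR = 0.000208) and 1.86 (SE 0.19, edgeR FDR = 2.47e-05). *Dcp1a*, a cofactor of Dcp2, rose over input by 1.12 (edgeR FDR = 5.24e-05) and was at 0.74 over IgG RIP (edgeR FDR = 0.000822). *Pabpc1*, the cytoplasmic poly(A)-binding protein, was lower than input, at -1.68 (edgeR FDR = 6.99e-06) and than IgG RIP, at -0.92 (edgeR FDR = 0.000231).

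Among 11 genes for loading, import and partners of Argonaute, 1 was called higher and 2 lower than IgG RIP, and 2 higher and 2 lower than input. *Limd1*, a LIM-domain protein that joins Argonaute to TNRC6, was at 73.0, 81.9 and 74.3 CPM in the CELF2-KI RIPs against 30.7 to 31.9 CPM in the IgG RIPs and 28.4 to 29.5 CPM in the inputs. It rose by 1.29 (SE 0.11, edgeR FDR = 1.15e-05) and 1.39 (SE 0.11, edgeR FDR = 4.86e-06), and its replicates were close together in every group. The median of these 11 was 0.56 over IgG RIP and 0.50 over input. The genes called lower were the same in both comparisons, *Hspa8* and *Hsp90aa1*, which encode chaperones that help open Argonaute for loading. *Hspa8* was at -1.39 over IgG RIP (edgeR FDR = 0.0002) and -1.77 over input (edgeR FDR = 4.23e-05), and *Hsp90aa1* was at -1.43 (edgeR FDR = 0.000105) and -1.14 (edgeR FDR = 0.000355).

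Among 7 tested genes of LIN28, tailing and microRNA turnover, 0 were called higher and 2 lower than IgG RIP, and 1 higher and 1 lower than input, with medians of -0.71 and -0.32. *Dis3l2*, the exonuclease that degrades tailed precursors, was at 22.7, 17.4 and 17.7 CPM in the CELF2-KI RIPs, 57.1 to 65.9 CPM in the IgG RIPs and 43.3 to 48.0 CPM in the inputs. It was lower, at -1.70 over IgG RIP (SE 0.14, edgeR FDR = 1.16e-05) and -1.23 over input (SE 0.14, edgeR FDR = 4.41e-05). *Tut7*, a terminal uridylyltransferase, was lower than IgG RIP, at -1.04 (edgeR FDR = 0.000597) and was at -0.40 over input (edgeR FDR = 0.0668). *Zswim8*, the receptor of the ubiquitin ligase for microRNA decay directed by targets, was at -0.71 over IgG RIP (edgeR FDR = 0.00413) and 0.13 over input (edgeR FDR = 0.524).

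Among 6 partners of Drosha and export factors, 1 was called lower than IgG RIP and none was called against input. *Srrt*, which links the cap-binding complex to primary microRNA processing, was lower than IgG RIP, at -1.69 (SE 0.19, edgeR FDR = 4.67e-05) and at -0.20 over input (edgeR FDR = 0.373), and it was higher in IgG RIP than in input by 1.49 (edgeR FDR = 0.000369). *Ddx17*, a helicase that works with Drosha, was at -0.04 over IgG RIP (edgeR FDR = 0.789). Of the PIWI clade, which binds another class of small RNAs and is mainly active in the germline, *Piwil1* did not exceed 1.54 CPM in any library and was not called.

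**Figure D5:**
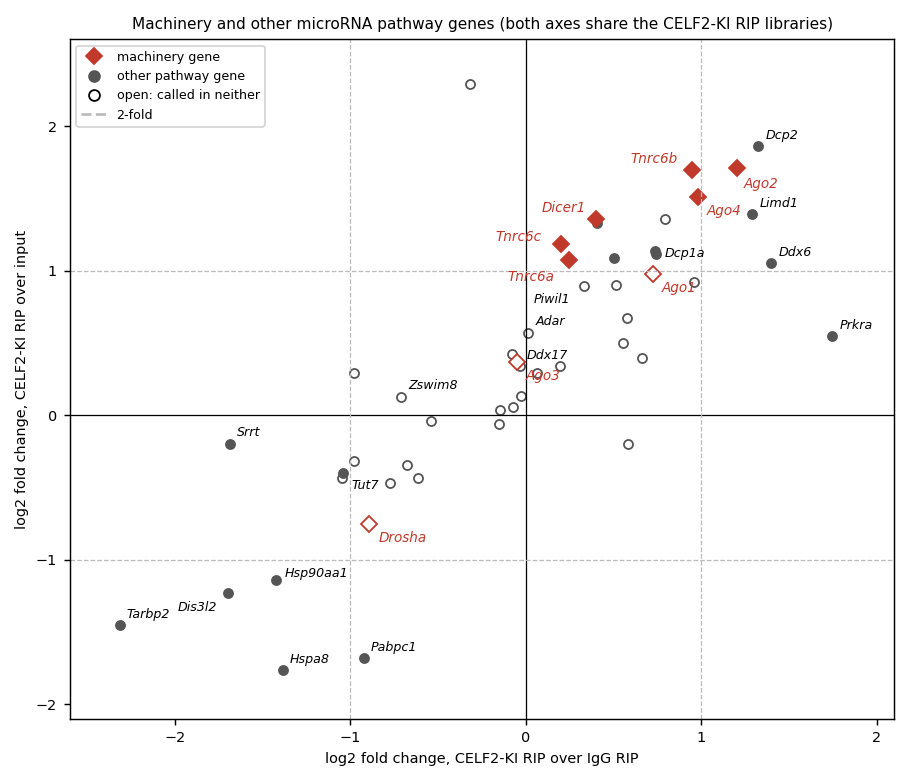
Log2 fold change over IgG RIP (horizontal) and over input (vertical) for the 9 machinery genes (red diamonds) and 41 other microRNA pathway genes (grey circles), filled where called in either comparison, with dashed lines at 2-fold. *Ago2*, *Dcp2*, *Limd1* and *Ddx6* lie beyond 2-fold on both axes at the upper right, *Tarbp2*, *Dis3l2*, *Hspa8* and *Hsp90aa1* at the lower left, and the axes share the CELF2-KI RIP libraries.

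The 5 genes nearest to *Ago2* in their pattern were found by the Euclidean distance of log2 CPM, centred over the 9 libraries. They were *Cry2*, a repressor of the circadian clock, at a distance of 0.25, *Fbxl18*, an F-box protein, at 0.26, *Klf13*, a zinc finger transcription factor, at 0.27, *Bach2*, a transcriptional repressor, at 0.29, and *Tns3*, an adhesion protein, at 0.29. *Cry2* was at 141, 252 and 188 CPM in the CELF2-KI RIPs, 86.5, 85.8 and 69.6 CPM in the IgG RIPs and 59.9, 54.3 and 65.5 CPM in the inputs. Like *Ago2*, it was highest in CELF2-KI RIP replicate 2 and lowest of the 3 in replicate 1. Of the machinery, *Tnrc6b* was nearest at 0.46, followed by *Ago4* at 0.69, *Ago1* at 0.97, *Dicer1* at 1.01, *Tnrc6a* at 1.20, *Tnrc6c* at 1.23, *Ago3* at 2.03 and *Drosha* at 3.24, where the median of all genes was 2.52.

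The RNAs that the machinery acts on were barely in view. Of 1185 microRNA precursor genes with a row in the table, 1183 were at 0 in every library and 2 held 23 counts in all. Long host transcripts were counted, and 11 of 13 passed the filter in a fit over coding and noncoding genes. Host levels are CPM on the scale of that fit, whose library sizes and TMM factors cover both classes of gene. Mature microRNAs encoded within 3 of these hosts are shown so that their seeds can be compared, from RefSeq on GRCm38.p6, 5′ to 3′, with the seed (bases 2 to 8) in capitals. They lie on the plus strand at chr7:79505279-79505301 within *Mir9-3hg*, at chr9:41531437-41531458 and chr9:41581940-41581961 within *Mir100hg*, and at chr11:75463772-75463793 within *Mir22hg*, and all 4 seeds differ.
miR-9-5p: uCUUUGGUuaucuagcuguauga
miR-100-5p: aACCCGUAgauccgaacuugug
miR-125b-5p: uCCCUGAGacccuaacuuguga
miR-22-3p: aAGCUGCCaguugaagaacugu

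Compared with IgG RIP, 0 of the 11 hosts were called higher in CELF2-KI RIP. The share of all genes called higher in that fit was not taken, so this count is not read as a result about the hosts. Called lower were 2, against 17.7% of all genes in that fit. They were *Mir99ahg* at -2.33 (SE 0.25, edgeR FDR = 5.36e-05) and *Mir124a-1hg* at -1.04 (SE 0.14, edgeR FDR = 0.000195). Both were also higher in IgG RIP than in input, by 2.73 (edgeR FDR = 9.07e-05) and 1.13 (edgeR FDR = 0.000279), and neither was called in CELF2-KI RIP over input, at 0.40 (edgeR FDR = 0.193) and 0.08 (edgeR FDR = 0.638). In all, 4 hosts were called higher in IgG RIP than in input, with *Mir1a-1hg* and *Mir133a-1hg* as the others, against 11.9% of all genes. *Mir9-3hg*, the host of miR-9, was at 34.5, 33.6 and 37.3 CPM in the CELF2-KI RIPs, 52.0, 34.4 and 42.7 CPM in the IgG RIPs and 38.1, 34.9 and 35.7 CPM in the inputs, and all 3 groups overlapped (-0.29 over IgG RIP, edgeR FDR = 0.143). *Mir100hg* was at 63.0, 49.2 and 58.3 CPM in the CELF2-KI RIPs, 47.6, 46.9 and 51.7 CPM in the IgG RIPs and 68.1, 64.7 and 65.9 CPM in the inputs, without a called difference. The level of a host transcript is not that of its mature microRNA, which was not measured here.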

How the data were processed

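RIP-seq and input libraries (3 replicates of 3 conditions) were made by the authors with rRNA depletion and directional preparation. Per the methods and processing notes, reads were checked with FastQC 0.11.9, trimmed with fastp 0.23.4, cleared of rRNA with Ribodetector 0.3.1 and pseudoaligned with Kallisto 0.51.1. The authors deposited estimated counts per transcript, not normalized, in which reads that fit several transcripts are shared out by likelihood. The methods name an Ensembl transcriptome and rows carry RefSeq accessions. All 9 columns were used.

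Rows were matched by accession to a RefSeq table of GRCm38.p6 (86722 of 107384 rows), summed per gene and rounded. A protein-coding gene entered the test if 3 or more libraries had 0.5 CPM or more. The test was that of edgeR 4.0.16 in R 4.3.3 (TMM, quasi-likelihood test, a mean per condition, common biological coefficient of variation 0.22). Transcripts were tested the same way, and for unequal change with limma 3.58.1 (voom, diffSplice, Simes). SE is the absolute log2 fold change over the square root of F. Rows left unmatched held 9.24% to 43.5% of counts, the most in IgG RIP.

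The genes, lists and alternatives were chosen with earlier results of these data known. Pathway genes named are the 12 called genes with the largest change over IgG RIP and the highest in CPM of each of the 6 lists. Alternatives were other scalings, filters, DESeq2 1.42.0 and edgeR's glmTreat, a replicate block, curated transcripts alone and leaving out each library. Deviations of same-numbered libraries from their condition's mean correlated at 0.11, 0.12 and 0.12 across genes between CELF2-KI RIP and input. These correlations were 0.03 to 0.06 between IgG RIP and input and -0.06 to 0.04 between CELF2-KI RIP and IgG RIP. Libraries of unlike number were not compared in this way, so whether the number pairs libraries was not established. Replicates differed by more than sampling noise (chi-square per gene 12.2 to 46.0). Steps were run on simulated data with few changed genes and a fixed spread, which do not cover shifts of scale or of reads between transcripts. Reads carry no molecular identifiers, so errors cover the spread between these libraries only. No protein sequences or transcript lengths were used here, so levels are not compared between genes. Tables and figures were made in Python 3.11.15 (pandas 2.3.3, matplotlib 3.10.9).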

Additional observations from a re-analysis of the deposited data

Results flagged for a closer look

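*Mir22hg*, the host transcript of miR-22 and no part of the comparisons of protein-coding genes, had a mean of 3.958 CPM in CELF2-KI RIP, and each of its 3 libraries (3.88, 4.00 and 3.99 CPM) was above all IgG RIP (1.90, 3.73 and 2.77 CPM) and input libraries (2.46, 2.57 and 2.17 CPM). Such an order was seen in 25.2% of protein-coding genes tested, so it is common among those, which are on another scale. Its share among noncoding genes was not counted. The gap from 3.73 to 3.88 CPM is narrow. *Mir22hg* was not called, at 0.51 on the log2 scale against IgG RIP (SE 0.28, edgeR FDR = 0.154) and 0.72 against input (SE 0.27, edgeR FDR = 0.0466), and the RIP libraries held 34 to 70 counts of it.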

How the results depend on the processing

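*Ago1*, *Ago2*, *Ago4*, *Dicer1* and *Tnrc6b* stayed above 0 over both controls, and *Drosha* below 0, under every alternative run. For *Dicer1* over IgG RIP the lowest value was 0.019. Counts of calls moved with the scale. Machinery genes called higher than IgG RIP were 0 with total counts, the upper quartile, TMM over coding and noncoding genes or glmTreat against 2-fold and 2 with curated transcripts, as were those higher than both controls, and leaving out a library gave 0 to 3 for each. Called lower than IgG RIP was 1 (*Drosha*) with total counts, the upper quartile, TMM over all genes or curated transcripts, and lower than input 1 with total counts, TMM over all genes or curated transcripts. Called higher than input were 3 with total counts or TMM over all genes and 2 with glmTreat. IgG RIP over input gave 1 higher with the upper quartile, 2 with a 5 CPM filter and 0 to 2 without a library.

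Pathway genes higher than IgG RIP were 2 with total counts and 1 with glmTreat, and those lower 12 with total counts, 10 with the upper quartile and 3 with glmTreat. Those higher than input were 1 with total counts, 3 with DESeq2 size factors, the upper quartile or the DESeq2 test, 2 with TMM over all genes or glmTreat, 4 with no filter or curated transcripts and 4 to 8 without a library (4 without any 1 input), and those lower 2 with glmTreat. In IgG RIP over input, glmTreat gave 0 higher and 0 lower, curated transcripts 1 higher, and leaving out a library 2 to 4 higher.

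Machinery transcripts higher than IgG RIP were 0 with total counts, no filter, glmTreat or the replicate block and 3 with DESeq2 size factors, with 0 to 1 without a library, and those lower were 0 to 1 without a library. Those higher than input were 2 with no filter, 0 with glmTreat or the replicate block and 0 to 5 without a library, and those lower 0 with glmTreat and 0 to 1 without a library. The block changed no other count. Unequal change among transcripts was called in 0 to 1 gene without a library in either comparison and in 1 (*Drosha*) over input with a 5 CPM filter.

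Signs that turned were those of *Ago3* over IgG RIP (0.04 and 0.13 without a library) and over input (-0.084 with total counts, -0.012 with TMM over all genes, -1.43 with curated transcripts), *Drosha* in IgG RIP over input (-0.028 with TMM over all genes, -0.084 curated), *Tnrc6a* over IgG RIP (-0.14 with total counts, -0.023 with the upper quartile) and in IgG RIP over input (-1.41 curated), and *Tnrc6c* over IgG RIP (-0.19 with total counts, -0.069 with the upper quartile, -0.032 with TMM over all genes, -0.55 curated, and from -0.021, without CELF2-KI RIP replicate 2, to 0.40 without a library). None of these values was past the FDR. The cause of these shifts was not tested. Low counts limit *Ago3* and single transcripts.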
